A study of Mus musculus with 4 samples.

Results

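Of the 7132 LADs (lamina-associated domains) that DamID found on chromosomes 1 to 18 of WT mouse hepatocytes, 857 were lost whole in hepatocytes lacking *Tm7sf2*: not one of their bases lay in a KO LAD. They were chosen by that comparison of the WT and KO LAD lists, and chromosomes 19, X and Y were left out. The 857 LADs made up 12% of the WT LADs (95% Wilson interval 11.3 to 12.8%), but with 17.0 Mb in all they held 1.29% of the bases in WT LADs and 0.707% of chromosomes 1 to 18. Since the KO list chose them, their absence from KO is the definition and not a result. What follows describes where they lay and what they carried.

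The study compared WT mice with *Tm7sf2* -/- mice (KO, also called NET47 KO) on a C57BL/6 background, aged 12 to 16 weeks. Primary hepatocytes, which are liver cells cultured straight from the animal, received for 24 h a lentivirus carrying LaminB1-Dam, or Dam alone as the control for accessibility. This gave 4 libraries, 1 of each construct in each genotype, and each held pooled DNA of 4 mice. There was therefore no replicate: no difference between genotypes carries an error between animals or a p-value, and a LAD is not a replicate of a genotype. The labelled cell type could not be checked against marker genes, because the deposited lists hold positions alone, with no expression, signal or score. The KO libraries were sequenced less deeply than the WT libraries according to the study, so depth and genotype cannot be told apart for any LAD that is missing from KO. The shortest LAD in either list was 10 kb, and a shorter KO LAD inside a lost WT LAD would not have been listed.

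LADs are stretches of chromatin that touch the nuclear lamina, the protein mesh under the inner membrane of the nuclear envelope (NE). They are mostly poor in genes and active transcription, and genes can leave or join them when a cell differentiates. Tm7sf2 is a sterol reductase of the endoplasmic reticulum and inner nuclear membrane, and it is related to the lamin B receptor, which tethers heterochromatin. In DamID, Dam methylates the adenine of GATC near the lamina, and the enzyme DpnI then cuts the methylated sites, so GATC sites set the resolution of each LAD border.

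The borders of the longest lost LADs are shown because they set where each LAD began and ended, 60 bases centered on the border, on the plus strand of mm9 (NCBIM37), with GATC in capitals.
Chromosome 6, left border (chr6:143601811-143601870): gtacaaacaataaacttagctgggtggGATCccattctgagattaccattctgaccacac
Chromosome 6, right border (chr6:143695539-143695598): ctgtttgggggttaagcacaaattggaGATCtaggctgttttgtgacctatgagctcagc
Chromosome 7, right border (chr7:126756884-126756943): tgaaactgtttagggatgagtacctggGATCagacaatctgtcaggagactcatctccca
Chromosome 5, left border (chr5:150964210-150964269): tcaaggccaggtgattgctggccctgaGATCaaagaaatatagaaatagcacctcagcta
Chromosome 5, right border (chr5:151044859-151044918): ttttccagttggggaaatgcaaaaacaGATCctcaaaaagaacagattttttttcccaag
Chromosome 17, left border (chr17:4606775-4606834): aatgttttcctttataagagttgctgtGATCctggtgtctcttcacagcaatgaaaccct
Chromosome 17, right border (chr17:4686289-4686348): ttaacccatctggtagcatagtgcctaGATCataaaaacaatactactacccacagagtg
In each of them the border fell within the only GATC of the window. Among all 857 lost LADs, 1710 of 1714 borders (99.8%) coincided with a GATC, so the borders were placed at cut sites. A lost LAD held a median of 44 GATC sites (quartiles 33 and 62, range 14 to 228), which is how many positions could have reported methylation in it. The median density was 2.60 sites per kb, beside 2.59 per kb in all WT LADs and 2.50 per kb over chromosomes 1 to 18. Below 30 kb it was lower in lost than in kept WT LADs, those that met a KO LAD. At 10 to 15 kb it was 2.58 against 2.76 per kb, at 15 to 20 kb 2.66 against 2.73. At 20 to 30 kb it was 2.58 against 2.64. From 30 kb it was slightly higher in lost LADs, with 2.62 against 2.60 at 30 to 50 kb and 2.56 against 2.54 from 50 kb.

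Lost LADs were short. Their median length was 16.1 kb, with quartiles at 12.4 and 23.2 kb and a range from 10014 bases to 93.7 kb, while kept WT LADs had a median of 49.7 kb. Of the 857, 579 (67.6%) were under 20 kb and 25 (2.92%) were 50 kb or longer. The share of WT LADs that were lost was 32.1% (367 of 1144) at 10 to 15 kb, 25.9% (212 of 817) at 15 to 20 kb and 16.1% (163 of 1015) at 20 to 30 kb. It was 8.92% (90 of 1009) at 30 to 50 kb and 0.794% (25 of 3147) from 50 kb. A long LAD is more likely to meet some KO LAD by its length alone, so length is part of the rule. Comparisons of flanks, GC content, chromosomes and gene overlap below were therefore also made within length classes or among WT LADs under 30 kb. The shares of gene lists were not matched for LAD length.

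**Figure D1:**
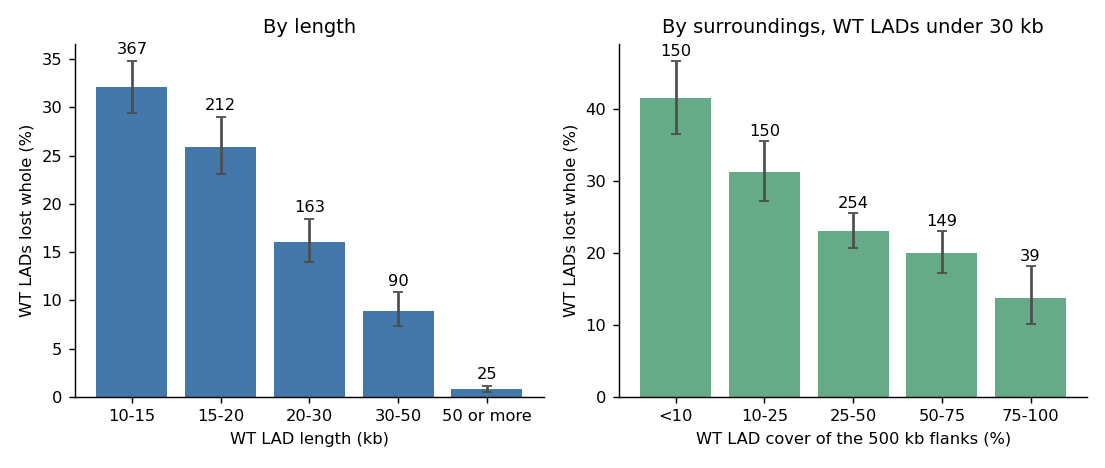
Percentage of WT LADs lost whole in KO (chromosomes 1 to 18), by WT LAD length in kb (left) and, for WT LADs under 30 kb, by the percentage of the 500 kb on each side that other WT LADs cover (right). Bars are shares, error bars are 95% Wilson intervals for counting error, and the number over each bar is the count of lost LADs; the share goes from 32.1% to 0.794% with length and from 41.6% to 13.7% with WT LAD cover.

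Just inside the rule, 12 lost LADs abutted a KO LAD with no base between them, and the next nearest lay 253, 369 and 391 bases from one. Just outside it, the kept WT LADs with the least overlap shared 9, 26 and 95 bases with a KO LAD, and 98 kept LADs had under 10% of their length in KO LADs. The nearest KO LAD was a median of 18.2 kb away (quartiles 8.74 and 37.9 kb). It lay under 10 kb away for 243 lost LADs (28.4%), 10 to 50 kb away for 459 (53.6%), 50 to 100 kb away for 94 and over 100 kb away for 61 (7.12%). For 372 of the 857 (43.4%, Wilson interval 40.1 to 46.7%), the nearest KO LAD was one that itself met no WT LAD, and 110 had such a KO-only LAD within 10 kb. Of all 14348 KO LADs on these chromosomes, 28% were KO-only. That share is no baseline for the 43.4%, because it also counts KO LADs inside kept WT LADs, where no lost LAD can lie.

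Lost LADs lay in surroundings with less WT LAD cover than kept ones. The 500 kb on each side of a lost LAD were covered to a median of 34.3% by other WT LADs and of 35.1% by KO LADs. The flanks of kept WT LADs had a median WT cover of 52.7%, and those of the separate KO-only LADs 17.6%. Lower WT cover than at kept LADs was also seen within length classes. Among LADs of 10 to 15 kb the WT medians were 29.9% for lost and 40.5% for kept, and at 20 to 30 kb they were 38.3% and 44.5%. Among WT LADs under 30 kb, the share lost was 41.6% (150 of 361, Wilson interval 36.6 to 46.7%) where the flanks held under 10% WT LAD. It was 31.3% (150 of 480), 23.0% (254 of 1104) and 20.0% (149 of 746) in the classes from 10, 25 and 50%, and 13.7% (39 of 285, interval 10.2 to 18.2%) where they held 75% or more. The intervals of the lowest and highest class did not overlap, and they cover counting error only. A short LAD is more likely to meet a KO LAD where KO LADs cover more of its surroundings. The rule may therefore be part of this gradient, which was not tested.

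Cover by position is given as a description for LADs under 30 kb. At 50 kb from the border, WT LADs covered 31.9% of positions and KO LADs 39.0%, and at 500 kb the values were 37.9% and 40.1%. Around kept LADs under 30 kb they were 41.6% and 53.4% at 50 kb, and 48.0% and 52.8% at 500 kb. The KO list sorted lost from kept LADs: each kept LAD meets a KO LAD, which can run into the flank, and no lost LAD does, so the KO values are not compared between them. The low WT cover next to the border follows from calling, since no gap between LADs was shorter than 8001 bases.

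**Figure D2:**
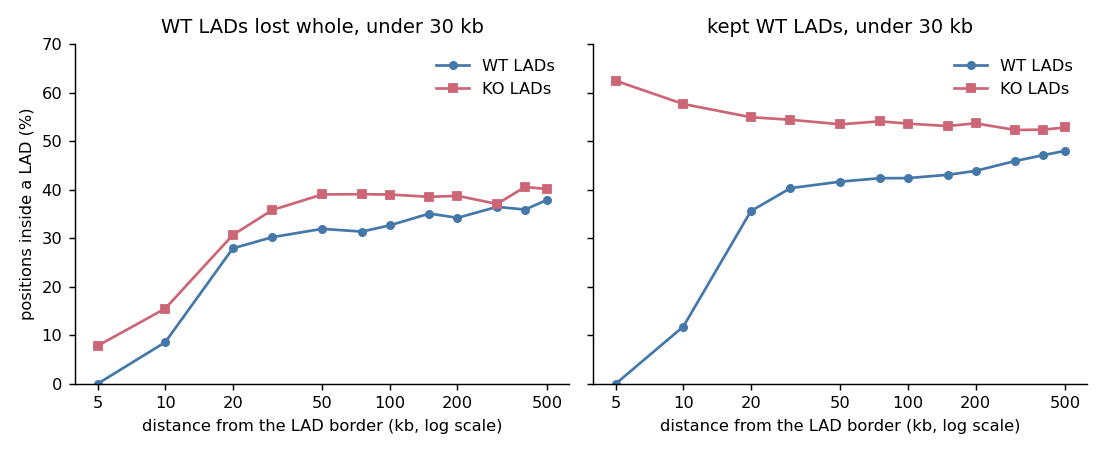
Percentage of positions that WT LADs (circles) or KO LADs (squares) cover against the distance from the LAD border in kb (log scale), for WT LADs under 30 kb that were lost whole (left) or kept (right). Each point pools both sides of all LADs, with no replicate, and the KO list chose which LADs are lost or kept. WT cover at 50 kb was 31.9% around lost and 41.6% around kept LADs.

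Base composition of the lost LADs was close to that of the genome, and slightly higher in GC. Their median GC content was 42.5% (95% order-statistic interval over LADs 42.3 to 42.7%, quartiles 40.5 and 44.5%), beside 41.9% for chromosomes 1 to 18. Kept WT LADs had a median of 41.4%, WT LAD edges lost in KO 42.1%, gaps opened inside WT LADs 39.5% and KO-only LADs 43.7%. Lost LADs were between kept and KO-only LADs in each of the 3 classes under 30 kb: at 10 to 15 kb the medians were 42.1% for kept, 42.6% for lost and 43.9% for KO-only LADs. The share of WT LADs under 30 kb that were lost was 21.4% (31 of 145) below 38% GC and 33.9% (102 of 301) from 46% GC, with Wilson intervals of 15.5 to 28.7% and 28.8 to 39.4%. Single LADs ranged from 33.2% GC, at the genes *Ccnh* and *Rasa1* on chromosome 13, to 52.2% GC in *Kcnab2* on chromosome 4.

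Every chromosome from 1 to 18 lost some LADs whole. The share was lowest on chromosome 3 (6.88%, 33 of 480) and highest on chromosome 14 (16.6%, 59 of 356). Chromosomes 1, 2, 3 and 10 had shares of 8.29% or less, while chromosomes 5, 8, 11 and 14 had shares of 15.3% or more. The order held among WT LADs under 30 kb at its ends, with 15.6% on chromosome 3 (31 of 199, interval 11.2 to 21.3%) and 34.4% on chromosome 14 (53 of 154, interval 27.4 to 42.2%). Many neighbors in that order had overlapping intervals, so chromosomes next to each other in it are not distinguished by these counts.

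**Figure D3:**
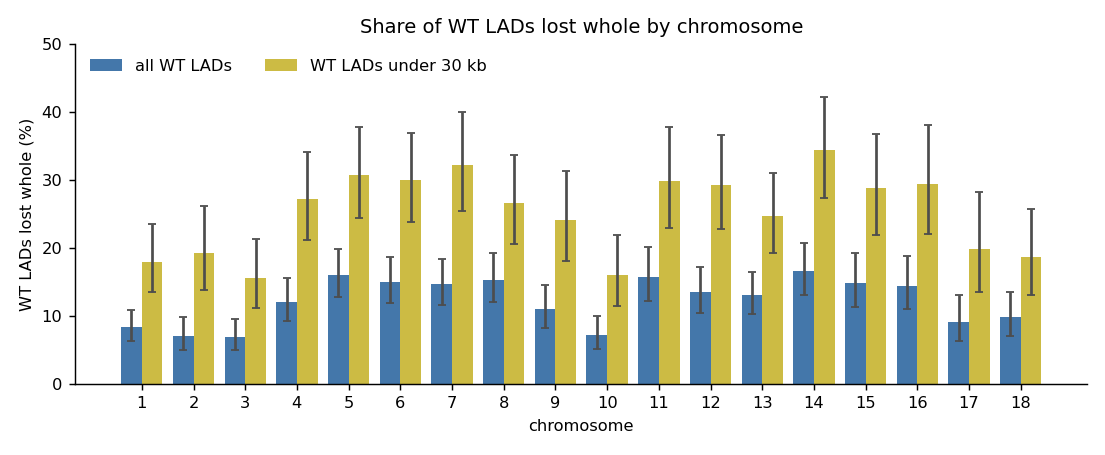
Percentage of WT LADs lost whole on each of chromosomes 1 to 18, for all WT LADs (blue) and for those under 30 kb (yellow), with 95% Wilson intervals for counting error. Among all WT LADs the shares run from 6.88% on chromosome 3 to 16.6% on chromosome 14.

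Below 30 kb, lost LADs overlapped protein-coding genes about as often as kept WT LADs of like length, and from 30 kb less often. Of the 857, 494 (57.6%) touched no gene and 363 (42.4%, Wilson interval 39.1 to 45.7%) overlapped one. The shares with a gene were 41.96% for lost and 46.46% for kept LADs at 10 to 15 kb, and 45.4% and 42.5% at 20 to 30 kb, with overlapping intervals. They were 32.2% and 50.6% at 30 to 50 kb, and 40% and 65.4% from 50 kb, with intervals that did not overlap. In the class from 50 kb, kept LADs were also longer (median 150 kb against 64.0 kb). Among WT LADs under 30 kb, 25.4% of those with no gene, 24.6% of those with a gene but no start and 22.4% of those with a start were lost. Of the 363 lost LADs on genes, 258 were wholly inside a gene, and 127 of these lay in introns with no exon of the longest coding transcript. Only 48 LADs (5.60%) held a transcription start, and 28 (3.27%) held a whole gene. The density was 3.40 starts per Mb, near the 3.47 per Mb of kept WT LADs, while KO-only LADs had 12.7 per Mb and chromosomes 1 to 18 had 8.58 per Mb. In each length class fewer lost LADs than KO-only LADs held a start: 1.63% against 12.1% at 10 to 15 kb, 7.55% against 20.6% at 15 to 20 kb, and 7.98% against 26.8% at 20 to 30 kb. Their Wilson intervals did not overlap in those classes. Against kept WT LADs the intervals overlapped in every class under 50 kb.

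**Figure D4:**
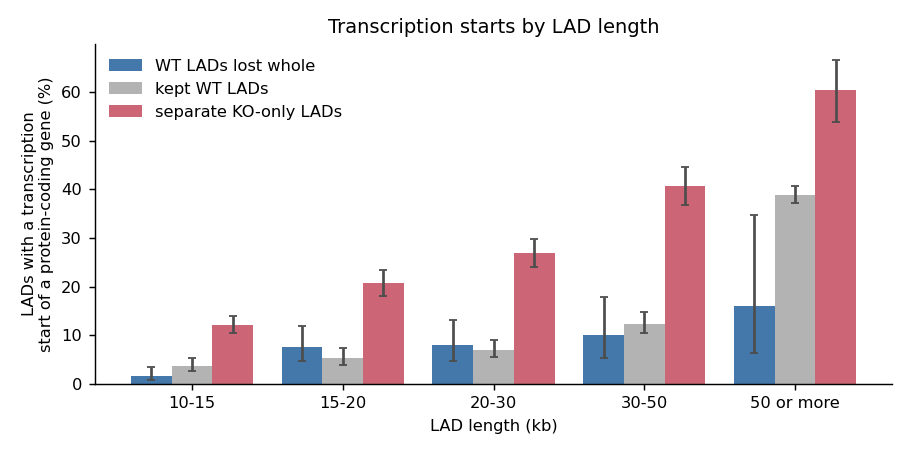
Percentage of LADs that hold the transcription start of at least 1 protein-coding gene, by LAD length in kb, for WT LADs lost whole (blue), kept WT LADs (grey) and separate KO-only LADs (red), with 95% Wilson intervals for counting error. At 20 to 30 kb the shares were 7.98%, 7.04% and 26.8%.

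In all, 338 of 20694 protein-coding genes (1.63%) overlapped a lost LAD, which is 5.52% of the 6128 genes on WT LADs. Their median span was 109 kb, beside 13.9 kb for genes on WT LADs and 15.6 kb for all genes. A gene counts with 1 shared base, so short scattered LADs meet long genes more often, and the genes on WT LADs under 30 kb had median spans of 123 kb for lost LADs (299 genes) and 93.4 kb for kept ones (817 genes). Of genes over 200 kb, 110 of 886 (12.4%) were overlapped, but of genes under 10 kb 37 of 8157 (0.454%). The lost LADs took a median of 14.9% of such a gene. For 58 genes (0.28% of all) the transcription start was in a lost LAD, and 53 of these 58 had no KO LAD anywhere on the gene. Of the 58, 34 lay wholly in 1 lost LAD, where the rule allows no KO LAD, so the count of 53 is largely set by the rule. KO-only LADs overlapped 2485 genes (12%) and held the starts of 1182 (5.71%). Of the 338 genes on lost LADs, 203 carried a KO LAD. For 196 of the 338 no WT LAD was kept, but only 128 of these 196 had no KO LAD on the gene. For 129 of the 338 a KO-only LAD lay on the same gene.

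Cytochrome P450 genes have products that oxidize drugs, steroids and fatty acids. They were on lost LADs at 6 of 72, which is 8.33% beside 1.63% for all genes. Of the 26 on WT LADs it is 23.1%, beside 5.52% for all genes on WT LADs. *Cyp2b13*, *Cyp2b9*, *Cyp2a22* and *Cyp2a12* lay close together (chr7:26846514-27821826), so the share rests largely on that stretch. KO-only LADs lay on 6 of the 72 and held the starts of 4, beside 12% and 5.71% of all genes. *Cyp2e1*, the ethanol-inducible P450 (chr7:147949638-147960874), lay whole with its 9 exons in a lost LAD of 36.5 kb (chr7:147946256-147982722) together with *Syce1*, a gene of the meiotic synaptonemal complex. The nearest KO LAD was 99.7 kb from *Cyp2e1*. *Cyp2a12* (chr7:27814109-27821826), a steroid hydroxylase gene, lay whole in a LAD of 62.1 kb with the nearest KO LAD 378 kb from the gene. Its neighbor *Cyp2a22* (chr7:27716650-27724405) lay whole in a separate lost LAD, 281 kb from a KO LAD. The 900 kb around the *Cyp2a12* LAD held 3 lost and 1 kept WT LAD, and KO LADs only at the far left side. *Cyp3a25* on chromosome 5 had its start and 28.9% of its span in a lost LAD, *Cyp2b13* its start and 8.60%, and *Cyp2b9* 45.3% of its span without the start. On *Cyp2e1*, *Cyp2a12* and *Cyp2a22*, which lay whole in lost LADs, the rule allows no KO LAD. *Cyp3a25*, *Cyp2b13* and *Cyp2b9* lay only partly in lost LADs and had no KO LAD on the rest of their span either. P450 genes of a subfamily are near-identical in parts, and how reads with several matches were treated is not given in the sources used here.

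The promoters of these genes are shown because their starts were in lost LADs: the 250 bases before the start, read from mm9 on the strand of the gene, with GATC in capitals. *Mbl1*, the gene of a mannose-binding lectin of liver plasma, is included.
*Cyp2e1* (chr7:147949388-147949637, plus strand): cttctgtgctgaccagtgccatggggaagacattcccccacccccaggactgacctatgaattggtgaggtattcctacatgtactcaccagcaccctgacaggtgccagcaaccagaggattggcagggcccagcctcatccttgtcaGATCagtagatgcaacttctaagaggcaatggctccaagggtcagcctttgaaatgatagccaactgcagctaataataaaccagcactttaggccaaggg
*Cyp2a12* (chr7:27813859-27814108, plus strand): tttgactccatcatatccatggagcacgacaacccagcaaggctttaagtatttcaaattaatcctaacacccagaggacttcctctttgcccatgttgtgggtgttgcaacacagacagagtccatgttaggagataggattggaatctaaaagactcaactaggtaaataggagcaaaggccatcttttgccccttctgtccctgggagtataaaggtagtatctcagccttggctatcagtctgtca
*Cyp2a22* (chr7:27724406-27724655, minus strand): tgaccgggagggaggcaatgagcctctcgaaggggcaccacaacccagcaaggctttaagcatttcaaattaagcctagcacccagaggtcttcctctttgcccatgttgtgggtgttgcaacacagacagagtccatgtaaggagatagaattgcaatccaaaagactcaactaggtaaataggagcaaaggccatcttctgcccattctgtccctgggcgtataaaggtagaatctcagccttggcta
*Cyp3a25* (chr5:146821195-146821444, minus strand): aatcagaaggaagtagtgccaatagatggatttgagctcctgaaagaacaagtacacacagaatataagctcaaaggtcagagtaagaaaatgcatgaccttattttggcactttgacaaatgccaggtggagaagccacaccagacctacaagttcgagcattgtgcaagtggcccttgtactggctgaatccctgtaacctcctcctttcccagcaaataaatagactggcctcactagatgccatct
*Mbl1* (chr14:41964495-41964744, plus strand): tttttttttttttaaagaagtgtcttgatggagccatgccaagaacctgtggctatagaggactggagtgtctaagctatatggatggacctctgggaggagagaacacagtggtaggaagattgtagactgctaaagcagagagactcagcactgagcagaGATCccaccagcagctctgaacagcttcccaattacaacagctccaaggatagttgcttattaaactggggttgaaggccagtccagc
The *Cyp2e1* and *Mbl1* windows held 1 GATC each, and the *Cyp2a12*, *Cyp2a22* and *Cyp3a25* windows held none. Over both strands, GATC was in 26 of the 58 promoters whose starts were in lost LADs (44.8%, Wilson interval 32.7 to 57.5%) and in 40.2% of all 20694 promoters of the same length. TATAAA, the core of the TATA box, was in the *Cyp2a12* and *Cyp2a22* windows, in 12 of the 58 (20.7%, interval 12.3 to 32.8%) and in 12.4% of all. These are counts of letters, not of sites in use.

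Other genes with liver or secreted products were scattered among the lost LADs. *Acsm2*, *Acsm1* and *Acsm5* encode medium-chain acyl-CoA synthetases and shared the second longest lost LAD (chr7:126675331-126756913, 81.6 kb). *Acsm2* lay in it whole with its 14 exons, *Acsm5* with 68.5% of its span and *Acsm1* with 11.5% of its span and its start. *Mup8*, *Mup12* and *Mup21*, members of the major urinary protein family that liver secretes as pheromone carriers, each lay whole in a lost LAD on chromosome 4. The nearest KO LADs were 17.1, 7.85 and 10.7 kb from the genes, but the LAD that held *Mup21* (chr4:61786492-61822233) was only 369 bases from a KO LAD. *Mup15* had 18.7% of its span in a lost LAD, without its start, and 2 KO LADs covered 36.3% of it. Of 21 *Mup* genes 19 were on WT LADs, 4 on lost ones and 9 on KO LADs. Over all genes, 1.63% were on lost LADs, which is 5.52% of those on WT LADs. The *Mup* family was chosen after its values were seen. Its genes are close copies, so reads may be split among them. Of 98 plasma protein and hepatocyte genes, 9 were on WT LADs and 3 on lost ones (3.06%, beside 1.63% of all genes). *Mbl1* had 62.9% of its span in a lost LAD, *C9*, a terminal complement component, had 48.7%, and *Cps1*, the first enzyme of the urea cycle, had 9.38%. *C9* and *Cps1* also had a KO LAD on another stretch, covering 23.8% and 1.01% of their spans. Of 115 genes of conjugation and other drug metabolism, 2 were on lost LADs (1.74%, near the share of all genes), the carboxylesterase genes *Ces1d* (51.0% of its span) and *Ces1h* (5.68%). None of the 31 genes of cholesterol synthesis and its regulators were on a WT LAD at all, so none could be lost.

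The longest lost LAD (chr6:143601841-143695568, 93.7 kb) carried no protein-coding gene and was 11.3 kb from a KO LAD. The third longest (chr5:150964240-151044888, 80.6 kb) lay in introns of *Fry*, whose product helps shape cell polarity and the spindle. The fourth lay on *Armc4*, a gene of motile cilia, on chromosome 18, and the fifth (chr17:4606805-4686318, 79.5 kb) carried no gene. The LAD farthest from any KO LAD, at 609 kb, was on chromosome 16 (chr16:98252599-98275855), with no LAD of either genotype in its 500 kb flanks and no gene. Next came LADs on chromosome 11 at *1700012B07Rik* (429 kb) and at *Gm11428* and *Expi* (347 kb), the *Cyp2a12* LAD (342 kb) and a LAD at *1700016D06Rik* on chromosome 8 (303 kb). Among genes lying wholly in a lost LAD, *Acsm2* (42.1 kb) was the longest, then *Tmem207* (23.0 kb), *Zscan5b* (17.1 kb), *Gm9631* (14.3 kb) and *Cyp2e1* (11.2 kb).

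**Figure D5:**
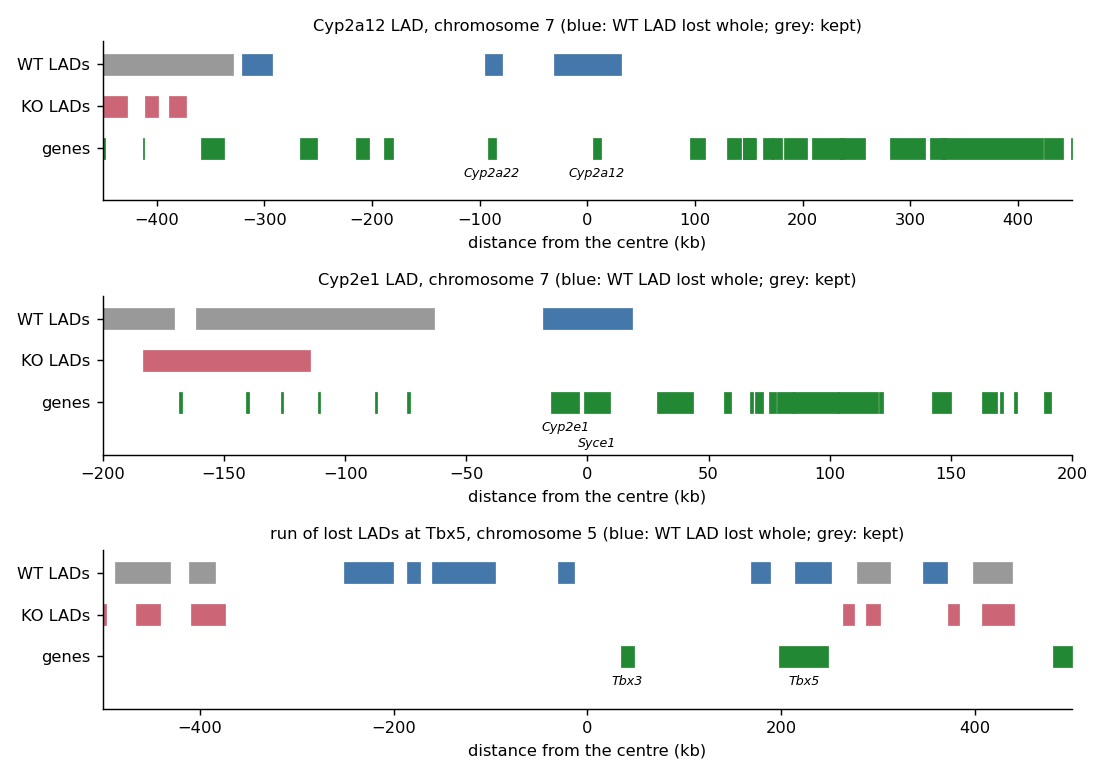
WT LADs (blue, lost whole; grey, kept), KO LADs (red) and protein-coding genes (green) around the *Cyp2a12* LAD, the *Cyp2e1* LAD and the run of lost LADs at *Tbx5*, drawn to scale by distance in kb from the centre of the LAD or run. The 6 lost LADs of the *Tbx5* run have no KO LAD between the first and the last, and the KO LADs of the upper maps lie to one side.

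Lost LADs came alone or in runs of neighboring WT LADs that were all lost. Single LADs numbered 485 and pairs 98, 30 runs held 3 LADs, 11 held 4, and the rest held 5 to 7. The longest runs had 7 LADs each, over 2610 kb on chromosome 8 with *Disc1* and over 1089 kb on chromosome 9 with *Fam55d* and *Tmprss5*. The run at *Tbx5*, a transcription factor gene of heart and forelimb development, had 6 lost LADs in 502 kb (chr5:119835437-120337425). They held 203 kb in all and no KO LAD lay among them, while the chromosome 8 run held 12 KO LADs. *Tbx5* had 68.0% of its span, without its start, in the last of them.

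10 genes carried 3 or more lost LADs, and all of them were long. *Tanc2*, a postsynaptic scaffold gene, had 3 lost LADs, which covered 143 kb (42.1% of its 339 kb) and 9 of its 27 exons, and its start lay in a KO LAD. *Sox5*, a transcription factor gene, had 4 lost of 13 WT LADs, and 13 KO LADs covered 40.9% of it. *Fgfr2*, a growth factor receptor gene, also had 4 lost LADs, but the annotation gives it a span of 3009 kb, which is unusually long for this gene. *Cacna1c*, a calcium channel gene, lost all 3 of its WT LADs and had 7 KO LADs elsewhere on it. *Plxna4*, *Wwox*, *Kirrel3*, *Sntg2*, *Atp8a2* and *Kcnj6* had 3 lost LADs each, covering from 6.03% of *Atp8a2* to 22.4% of *Kcnj6*, and all of them also carried KO LADs. Of the 10 genes, *Tanc2*, *Kcnj6* and *Wwox* had no KO-only LAD and the others had 1 to 7. Ion channel genes in all were on lost LADs at 7 of 167 (4.19%, beside 1.63% of all genes), none with its start. Developmental transcription factor genes were at 5 of 182 (2.75%): *Tbx5*, *Sox5*, *Sox6*, *Ebf2* and *Ebf3*, none with its start. As shares of the genes on WT LADs, these were 10.3% of 68 and 25% of 20, beside 5.52% for all genes. Long genes met lost LADs more often (12.4% over 200 kb, 0.454% under 10 kb), and the list shares were not matched for gene span.

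Receptor gene families were on lost LADs less than the 5.52% of all genes on WT LADs, but these shares were not matched for LAD length. Only 0.794% of WT LADs from 50 kb were lost, so genes in long LADs could hardly be on a lost one. The lengths of the LADs that hold each family were not compared. Of 1421 olfactory, vomeronasal and taste receptor genes 1326 were on WT LADs and 5 on lost ones (0.377% of those on WT LADs), among them *Olfr1342* and *Vmn1r52* whole. None of 91 neurotransmitter receptor genes was on a lost LAD, though 46 were on WT LADs. Of 359 zinc finger protein genes 97 were on WT LADs and 10 on lost ones (10.3% of the 97), among which *Zfp429* lay whole in one of several lost LADs in a cluster on chromosome 13. Of 153 keratin and defensin genes 82 were on WT LADs and 4 on lost ones (4.88% of the 82), with *Krt32*, *Krt35* and *Krt9*, hair and skin keratin genes, whole in 2 LADs on chromosome 11, and *Defb1*, an antimicrobial peptide gene, with 37.1% of its span. On lost LADs were 8 of 387 transporter genes (2.07%), 3 of 145 neuronal and adhesion genes (2.07%) and 5 of 385 immune receptor and cytokine genes (1.30%). So were 5 of 241 protease and inhibitor genes (2.07%) and 1 of 65 extracellular matrix genes (1.54%), beside 1.63% of all genes. As shares of the genes on WT LADs, these lists had 8.89, 3.06, 3.94, 4.50 and 3.57% in that order, beside 5.52% for all genes. The 1 hit among 137 names matched as ribosomal was *Rps6ka5*, which encodes a kinase. Of the genes that the study lists as released and upregulated, 7 were examined on chromosomes 1 to 18. All 7 were on WT LADs, and *Cyp2b9* and *Defb1* were on lost LADs (28.6%, beside 5.52% for all genes on WT LADs). The study drew that list from these LAD calls together with expression data of other livers, so it is not independent evidence. No expression was measured in these files.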

How the data were processed

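The authors mapped DamID reads to mm9, took the log2 ratio of LaminB1-Dam to Dam for each DpnI fragment and called LADs with DNAcopy. BWA and limma are named in the submitters' processing notes with no version. The deposited LAD lists are BED intervals with no signal, 1 per genotype. The deposited DR lists, the authors' own subtraction of the LADs, were not used. A WT LAD was lost whole when it shared no base with a KO LAD (half-open intervals). Genes were protein-coding genes of GENCODE on NCBIM37, the same assembly as mm9, and a gene was on a LAD with 1 shared base. Chromosomes 19, X and Y were left out.

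Members, gene lists and alternatives were chosen with earlier results of these data known. Genes were named by rule: those on the 5 longest LADs and the 5 farthest from a KO LAD, those in the longest runs or with 3 or more lost LADs, the longest genes wholly inside, and those of the fixed lists. The *Mup* genes, *Ccnh*, *Rasa1* and the *Tbx5* run were chosen after their values were seen. Printed promoters stop before the start site. Python 3.11.15, numpy 2.4.6, pandas 2.3.3, scipy 1.17.1, pysam 0.24.0, samtools 1.23.1 and matplotlib 3.10.9 were used. Simulated LAD lists (997 LADs) were used to check overlap, distance and subtraction, with 0 errors. Because each genotype had a single pooled pair of libraries, no test was made, and the depth behind each LAD is unknown. Of the study's list of released genes, those on chromosome 19 were left out, and some are not reported here.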

Additional observations from a re-analysis of the deposited data

How the results depend on the processing

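With 1 pooled pair of libraries per genotype, the definition of a lost LAD moved its numbers more than its composition. A value counted as unchanged within a factor of 1.5 for numbers and sizes, or within its 95% interval for shares and for medians of GC and flanks. By that rule 66 of the values recomputed were unchanged and 50 moved.

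When up to 10, 25 or 50% of a WT LAD could lie in KO LADs, the share lost was 13.4, 15.6 and 23.5%. At 25% the lost bases came to 26.6 Mb and the flanks to 36.8% (WT) and 37.3% (KO). At 50% there were 1673 lost LADs with 57.5 Mb and 677 genes, and flanks of 40.02 and 40.28%. With no KO LAD within 10 kb the share was 8.61% and the KO flanks 31.7%. With none within 50 kb, 155 LADs remained (3.24 Mb, 2.17%), of which 36.1% overlapped a gene, with 55 genes, 43.0% GC and flanks of 20.1 and 20.1%. LADs joined over gaps up to 50 kb gave 248 lost LADs (6.02 Mb, 11.1%), 42.8% GC, 108 genes and flanks of 17.3 and 31.2%.

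WT LADs of at least 20 kb gave 278 lost (8.96 Mb, 5.38%), a median length of 27.5 kb and 123 genes. Those of at least 50 kb gave 25 (1.63 Mb, 0.794%), 64.0 kb, 42.2% GC and 12 genes. With KO LADs of at least 20 kb, 1407 were lost (32.6 Mb, 19.7%), with 524 genes and KO flanks of 32.2%. Genes counted by their start numbered 58, by 10% of the span 206 and by 50% 68. Flanks of 100 kb gave 24.4 and 32.0%, and flanks of 1 Mb gave 37.4% in WT.

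Including chromosomes 19, X and Y (995 lost), joining over up to 10 kb (726) or counting abutting LADs as kept (845, chosen after seeing the data) moved none of the values. No paired analysis was possible because each genotype and construct has 1 library. The lists hold no signal, so how close a lost LAD came to being called in KO is unknown.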
